A study of Mus musculus with 6 samples.

Results

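The genes described here are the heat shock protein families of the cytosol together with the chaperonins, their J-domain and BAG partners, the other cochaperones that work with them, and the heat shock factors Hsf1 and Hsf2. They were chosen by symbol. Genes of the authors' filtered table whose symbols begin as Hspa, Hspb, Hspd, Hspe, Hsph, Hsp90, Dnaja, Dnajb, Dnajc, Cct or Bag were taken, with Cryab, Hsf1, Hsf2, Chordc1, Stip1, Ahsa1 and St13 added. Chaperones of the endoplasmic reticulum (Hspa5, Hsp90b1, Dnajb9, Dnajb11, Dnajc3 and Dnajc10), Hspa4l and Hspbap1 were left out. The rule gave 77 genes of the 13098 in that table, and all 77 were among the 15035 genes tested here. The raw table held 98 matching symbols. Of the 21 that the authors' filter removed, 10 were pseudogenes and 11 were other genes, such as Hspb3, Hspb9, Dnajc6 and Cct6b. The symbols reach beyond the cytosol. At least 8 of the 77 encode mitochondrial proteins, at least 6 encode proteins of the endoplasmic reticulum, and Hspb11 belongs to the transport machinery of the cilium.

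The cells were lung endothelial cells of female C57BL6 mice aged 3 weeks that lack Ch25h, the gene of cholesterol 25-hydroxylase, and all 3 groups share this genotype. The TEV plus reserpine group was given 10 µM reserpine, a blocker of vesicular monoamine transport, for 8 h and then extracellular vesicles of MC38 mouse colorectal tumour cells at 20 µg/ml for 12 h. The TEV group was given the same vesicles without reserpine, and the vehicle group was given vehicle alone. One reading of the series text would give reserpine to every group, but the labels of the samples name it in the first group alone and were used. Each group held 2 libraries of polyA RNA from cells in culture; a wild type group and a group with reserpine alone were not analysed here. Whether the libraries of a group came from separate cultures or animals is not stated, so p-values measure only the spread between these libraries.

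Heat shock proteins bind unfolded or partly folded proteins and keep them from aggregating. Hsp70 proteins do this in cycles of ATP use that J-domain proteins start and that BAG and Hsp110 proteins end by releasing the nucleotide, Hsp90 finishes the folding of kinases and steroid receptors with its own cochaperones, small heat shock proteins hold clients without ATP, and chaperonins enclose them in a ring. When unfolded protein builds up, heat shock factor 1 trimers bind repeated GAA units in the promoters of inducible members such as Hspa1a, Hspa1b, Hsph1 and Dnajb1, whereas Hspa8 and Hsp90ab1 are abundant in unstressed cells. In endothelium, Hsp90 is also a known partner of the endothelial nitric oxide synthase.

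Library depth ranged from 22270657 to 81225627 estimated counts. Levels below are CPM, read counts relative to library size after scaling between libraries. The summed level of 16 endothelial markers was 10905 and 10631 CPM with TEV plus reserpine, 11568 and 11313 CPM with TEV, and 5564 and 5490.1 CPM with vehicle. Of the 16, 10 were called higher and 5 lower (Cldn5, Kdr, Sox17, Sox18 and Tek) in TEV against vehicle. Other cell types' markers moved too. Fibroblast markers summed to 506 and 453 CPM with TEV plus reserpine, 343 and 398 CPM with TEV, and 3378 and 2938 CPM with vehicle, and 8 of the 9 tested were called lower and 1 higher in TEV against vehicle. Markers of pericytes and smooth muscle summed to 1529 and 1424 CPM, 1223 and 1399 CPM, and 2498 and 2481 CPM in the same order of groups, and 9 of 10 were called lower in TEV against vehicle; Cspg4 was listed at 0 in both vesicle groups. Macrophage markers summed to between 13.4 and 18.3 CPM in the vesicle groups and to 36.9 and 41.9 CPM with vehicle, with 5 of 8 tested called lower and 1 higher in TEV against vehicle. Epithelial markers summed to between 51.9 and 61.5 CPM in the vesicle groups and to 17.4 and 16.5 CPM with vehicle, with Krt18 and Krt19 called higher and Krt8 and Nkx2-1 called lower of 5 tested in TEV against vehicle. Of the defining markers, Lum, Fcgr1, Epcam and Sftpc were listed at 0 with TEV plus reserpine, Nkx2-1 with TEV and Epcam with vehicle. Fewer cells of a type and less RNA per cell cannot be told apart in such bulk libraries, and the part of these markers in the results on heat shock genes was not tested.

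The first comparison asked what the vesicles change. With TEV, Hspa1b and Hspa1a, the inducible Hsp70 genes, stood far above vehicle, and Cryab, Hsf2, Hsph1, Dnajb6, Dnajc9 and Bag3 were each called at least 2-fold higher. Bag2, Hspa12a, Hspb8 and Hspb11 were called at least 2-fold lower. In edgeR's quasi-likelihood fit, with a gene called where its adjusted p was under 0.05, 39 of the 77 members (50.6%) were called higher and 10 (13.0%) lower, against 25.1% of all genes tested called higher and 24.6% called lower. Hspb7 is among the lower members here and in the third comparison, but its call says nothing beyond its selection, since it passed the authors' filter through the vehicle libraries alone. The same holds for Hspb2, counted as higher here and as lower in the second comparison, which passed that filter through the TEV libraries. The median log2 change was 0.29 over the members and 0.01 over all genes tested. Fewer members were called higher without some single libraries, as were fewer of all genes. With each library left out in turn, the median lay between 0.29 and 0.33 over the members and between 0.00 and 0.02 over all genes. Without scaling beyond library size the median of all genes moved to -0.11 and that of the members to 0.17. In that fit 28 members (36.4%) were called higher and 13 (16.9%) lower, against 19.7% and 29.9% of all genes.

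The second comparison asked what reserpine changes in cells given vesicles. Hspa1b, Hspa1a, Cryab, Hsf2, Hsph1 and Dnajb6, which stood high with TEV, were each called at least 2-fold lower with TEV plus reserpine. Hspa2 and Dnajc12 were called at least 2-fold lower too. Dnajb1, also named above as inducible, did not pass the test (log2 change 0.03, edgeR adjusted p = 0.824). The call of Hspa2 ended with limma-voom (limma adjusted p = 0.0679), and that of Dnajc12 without TEV replicate 1 (edgeR adjusted p = 0.0631) or TEV plus reserpine replicate 1 (0.0704). Hspb11, Hspa12b and Dnajc19 were called at least 2-fold higher. In all, 7 members (9.09%) were called higher and 28 (36.4%) lower with TEV plus reserpine than with TEV, against 15.7% of all genes tested called higher and 16.0% called lower. The median log2 change was -0.20 over the members and 0.00 over all genes. Calls were fewer without some single libraries, among members and among all genes alike. Without TEV replicate 1, 13 members (16.9%) were lower, against 6.93% of all genes. Without replicate 1 of TEV plus reserpine 15 (19.5%) were lower, against 8.16% of all genes, and without its replicate 2, 16 (20.8%), against 8.22%. The higher members numbered 4 (5.19%) without TEV replicate 1 or without TEV plus reserpine replicate 2, against 6.76% and 8.04% of all genes. This comparison and the first use the same TEV libraries, so opposite changes in the 2 comparisons are not independent of each other.

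The third comparison set cells given both agents against vehicle. Dnajc9 and Hspa12b were called at least 2-fold higher, and Hspa2, Hspa12a, Bag2 and Hspb8 at least 2-fold lower. In all, 22 members (28.6%) were called higher and 14 (18.2%) lower, against 19.1% and 19.9% of all genes tested. The median log2 change was 0.11 over the members and -0.02 over all genes. Here too calls were fewer without single libraries. Without vehicle replicate 1, 9 members (11.7%) were higher, a share near the 11.6% of all genes, and 6 (7.79%) lower, against 11.5%. Without vehicle replicate 2, 10 (13.0%) were higher, against 12.4% of all genes, and 7 (9.09%) lower, against 12.8%. Without TEV plus reserpine replicate 1 the share of higher members was again near that of all genes. Without TEV plus reserpine replicate 2 it was above that of all genes. The share of lower members was below that of all genes in both fits. Medians of the members were 0.12 and 0.10 in the same order, against -0.03 over all genes in both.

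**Figure D1:**
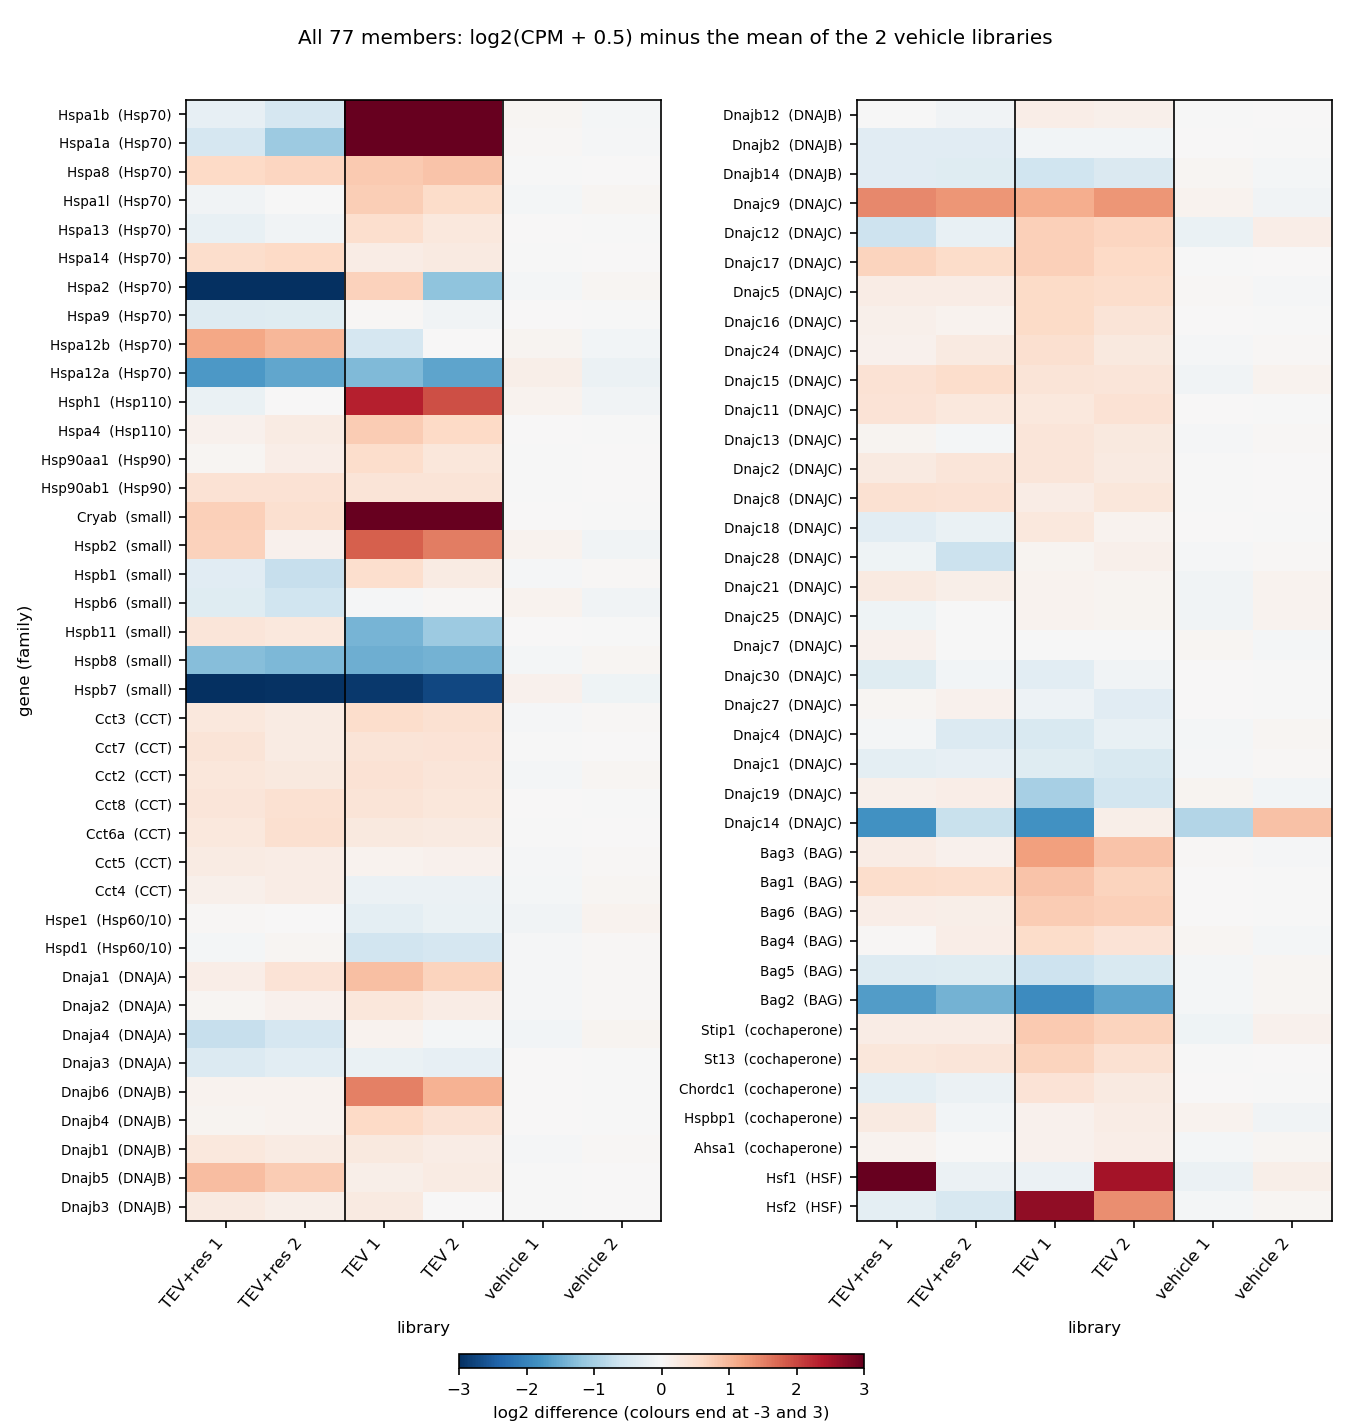
Each row is 1 of the 77 genes, grouped by family, and each column is 1 library; colour gives log2(CPM + 0.5) minus the mean of the 2 vehicle libraries, with colours ending at -3 and 3. Hspa1b, Hspa1a, Cryab, Hsph1 and Dnajb6 are red in both TEV libraries and pale with TEV plus reserpine, Hspb7, Hspb8, Bag2 and Hspa12a are blue in both vesicle groups, and Hsf1 and Dnajc14 differ between libraries of 1 group.

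**Figure D2:**
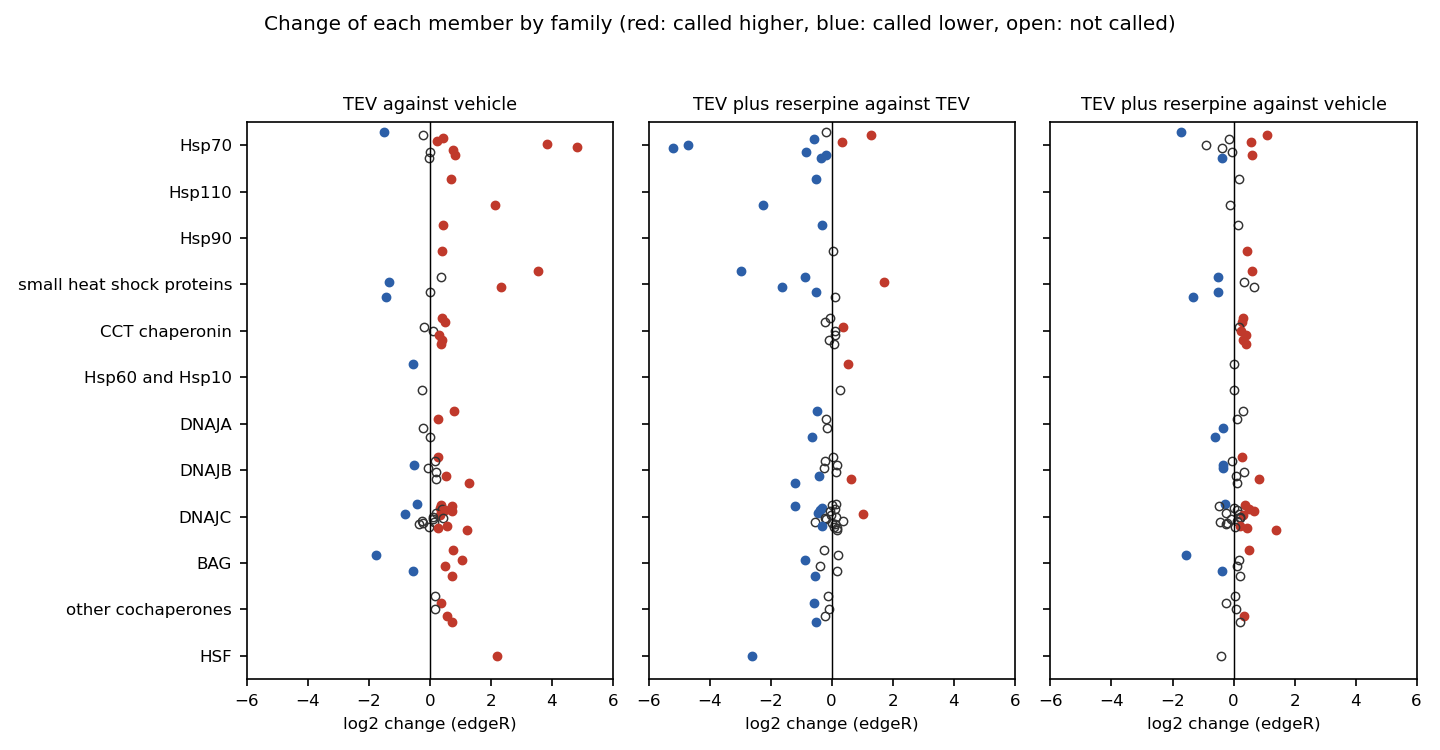
Each point is 1 gene's log2 change in edgeR, with families in rows and the 3 comparisons in panels; filled red points were called higher, filled blue points lower and open points were not called. Hsf1 and Dnajc14, and Hspa2 in the panels with reserpine, are left out because they are listed at or near 0 in a group. Hspb7 is left out because its vehicle level alone made it a member. Hspb2 is shown, although its TEV level made it a member. The widest spread is among the Hsp70 and small heat shock protein genes, with Hspa1b at 4.82 and -5.20 in the first 2 panels.

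Hsp70 genes showed the largest increases. Hspa1b, an inducible Hsp70 gene, had 30.8 and 25.6 CPM with TEV plus reserpine, 1353 and 716 CPM with TEV, and 37.9 and 35.1 CPM with vehicle. Both TEV libraries lay far above the other 4, and replicate 1 was the higher of the pair. It was 28.3-fold higher in TEV than in vehicle (log2 change 4.82, SE 0.317, edgeR adjusted p = 6.17e-05) and lower in TEV plus reserpine than in TEV (log2 change -5.20, SE 0.325, edgeR adjusted p = 0.000369). TEV plus reserpine against vehicle did not pass the test (log2 change -0.38, SE 0.285, edgeR adjusted p = 0.334). Its neighbour Hspa1a, which encodes nearly the same protein, had 4.20 and 2.64 CPM with TEV plus reserpine, 120.1 and 57.0 CPM with TEV, and 6.32 and 6.06 CPM with vehicle. Again the TEV libraries did not overlap with the others. The log2 change was 3.83 (SE 0.386, edgeR adjusted p = 0.00035) in TEV against vehicle and -4.72 (SE 0.417, edgeR adjusted p = 0.000895) in TEV plus reserpine against TEV. Of the windows of 75 bases in the Hspa1b transcripts, 55.8% also occur in Hspa1a, so the split of reads between this pair is uncertain. Their summed level does not depend on it, and was 35.0 and 28.2 CPM with TEV plus reserpine, 1473 and 773 CPM with TEV, and 44.2 and 41.2 CPM with vehicle.

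**Figure D3:**
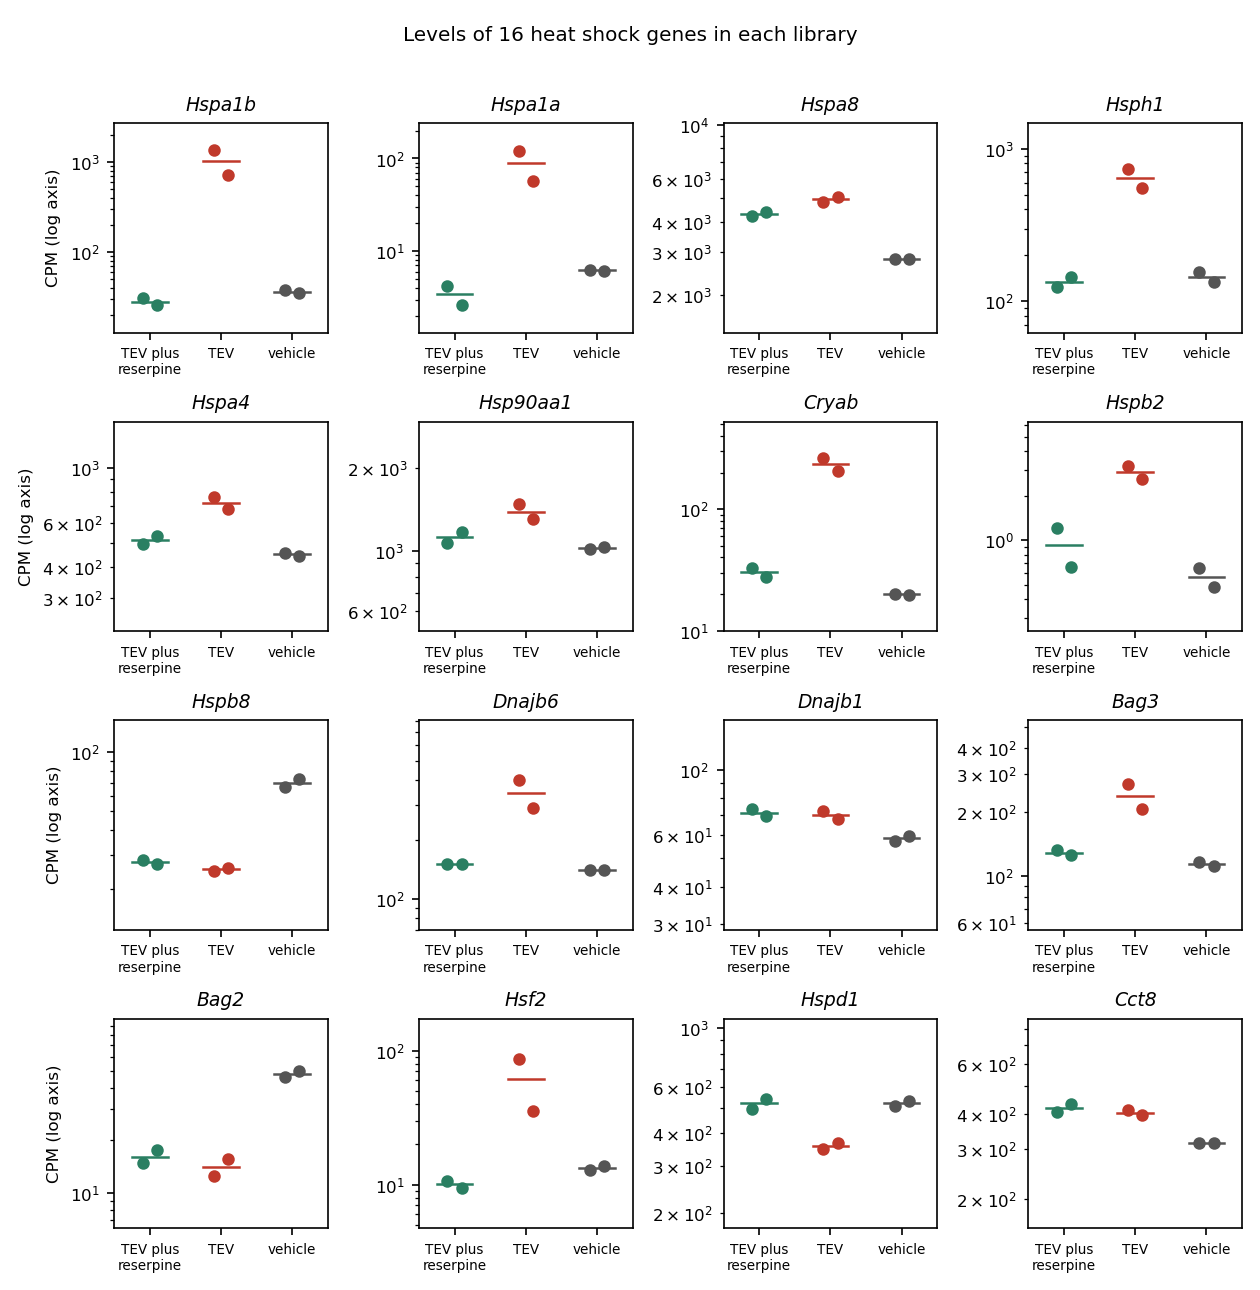
Points are the CPM of each of the 2 libraries of a group on a log axis and bars are group means, for 16 genes, with TEV plus reserpine, TEV and vehicle from left to right. Hspa1b, Hspa1a, Hsph1, Cryab, Dnajb6, Bag3 and Hsf2 are highest in both TEV libraries, Hspb8 and Bag2 are highest with vehicle, and Hspa8 is lowest with vehicle.

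Hspa8, the constitutive Hsp70 of the cytosol, had 4237 and 4380 CPM with TEV plus reserpine, 4824 and 5072 CPM with TEV, and 2809 and 2826 CPM with vehicle. Both vesicle groups lay above vehicle in every library. It was called higher in TEV against vehicle (log2 change 0.81, SE 0.0605, edgeR adjusted p = 0.000103) and in TEV plus reserpine against vehicle (0.61, SE 0.0603, edgeR adjusted p = 0.000471). The smaller difference between TEV plus reserpine and TEV (-0.20, SE 0.0601, edgeR adjusted p = 0.0445) lost its call without any 1 of the 6 libraries (edgeR adjusted p between 0.0645 and 0.172). Of the read-length windows of Hspa8, 66.0% occur in other transcripts, chiefly those of the predicted gene Gm15459. Hspa1l, a further Hsp70 best known from testis, had at most 4.11 CPM in any library, and its calls, higher in TEV against vehicle (0.76, edgeR adjusted p = 0.0327) and lower in TEV plus reserpine against TEV (-0.83, edgeR adjusted p = 0.0381), ended without any 1 of the 4 vehicle and TEV libraries in the first (edgeR adjusted p between 0.0559 and 0.144) and without any 1 of the 6 libraries in the second (between 0.0593 and 0.158).

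The other Hsp70 genes each followed a pattern of their own. Hspa2, an Hsp70 known for its role in male germ cells, was listed at 0 and had 0.0574 CPM with TEV plus reserpine, against 11.8 and 2.83 CPM with TEV and 6.83 and 7.49 CPM with vehicle. The TEV libraries differed from each other and lay on both sides of vehicle, while both TEV plus reserpine libraries were at or near 0. With 2 counts over the TEV plus reserpine group, the gene was 162-fold lower than with TEV (95% counting interval 44.5 to 1340) and 203-fold lower than with vehicle (55.9 to 1680), intervals that cover counting error only. Hspa12a, a distant relative of Hsp70, had 9.07 and 10.2 CPM with TEV plus reserpine, 12.2 and 10.1 CPM with TEV, and 35.6 and 27.4 CPM with vehicle. It fell in TEV against vehicle (log2 change -1.51, SE 0.174, edgeR adjusted p = 0.000609) and in TEV plus reserpine against vehicle (-1.71, SE 0.178, edgeR adjusted p = 0.000609). Hspa12b, its endothelial relative with a known role in angiogenesis, had 82.2 and 73.3 CPM with TEV plus reserpine, 25.7 and 37.0 CPM with TEV, and 38.7 and 34.8 CPM with vehicle. The TEV plus reserpine libraries were about 2-fold above all others (log2 change 1.30, SE 0.177, edgeR adjusted p = 0.00331 against TEV, and 1.08, SE 0.177, edgeR adjusted p = 0.00387 against vehicle), and TEV against vehicle did not pass the test.

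Hspa13, which sits in microsomes, had 53.8 and 58.6 CPM with TEV plus reserpine, 89.6 and 78.9 CPM with TEV, and 62.9 and 62.8 CPM with vehicle. It was lower in TEV plus reserpine than in TEV (log2 change -0.58, edgeR adjusted p = 0.00683) and higher in TEV than in vehicle (0.42, edgeR adjusted p = 0.0106), a call that ended without vehicle replicate 1 or 2 (edgeR adjusted p between 0.0583 and 0.0585). Hspa14, an Hsp70 of the ribosome, had 72.8 and 77.1 CPM with TEV plus reserpine, 58.9 and 60.6 CPM with TEV, and 49.9 and 51.2 CPM with vehicle. It was highest with both agents, at a log2 change of 0.57 against vehicle (edgeR adjusted p = 0.00227), while the call against TEV (0.33, edgeR adjusted p = 0.0242) ended without vehicle replicate 1 or 2, TEV replicate 1, or TEV plus reserpine replicate 1 or 2 (edgeR adjusted p between 0.0536 and 0.108), and that of TEV against vehicle (0.24, edgeR adjusted p = 0.0435) without any 1 of the 6 libraries (between 0.0533 and 0.198). Hspa9, the mitochondrial Hsp70, had 552 and 566 CPM with TEV plus reserpine, 742 and 669.6 CPM with TEV, and 725 and 724 CPM with vehicle. It was lower with both agents than with TEV (log2 change -0.34, edgeR adjusted p = 0.0183) and than with vehicle (-0.37, edgeR adjusted p = 0.00922). The first call ended without TEV replicate 1 or TEV plus reserpine replicate 1 or 2 (edgeR adjusted p between 0.0628 and 0.0767) and the second without vehicle replicate 1 (0.0503).

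Hsp110 genes encode large relatives of Hsp70 that act as its nucleotide exchange factors. Hsph1 had 125 and 145 CPM with TEV plus reserpine, 734 and 553 CPM with TEV, and 155 and 135 CPM with vehicle. The TEV libraries stood alone, and the other groups overlapped. The log2 change was 2.15 (SE 0.158, edgeR adjusted p = 9.9e-05) in TEV against vehicle and -2.25 (SE 0.159, edgeR adjusted p = 0.000517) in TEV plus reserpine against TEV. Hspa4 had 494 and 532 CPM with TEV plus reserpine, 765 and 685 CPM with TEV, and 456 and 443 CPM with vehicle. It rose by less, at a log2 change of 0.69 (SE 0.0845, edgeR adjusted p = 0.000789) in TEV against vehicle, and was lower in TEV plus reserpine than in TEV (-0.50, SE 0.0843, edgeR adjusted p = 0.00719). The third gene of the family, Hspa4l, is outside the rule and had 40.2 and 45.8 CPM with TEV plus reserpine, 389.6 and 240.1 CPM with TEV, and 38.7 and 39.0 CPM with vehicle. Its log2 changes were 3.02 (edgeR adjusted p = 0.000108) and -2.87 (edgeR adjusted p = 0.000682) in the first 2 comparisons.

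The promoters of these genes were read for heat shock elements, the sites known to bind heat shock factor 1. RefSeq promoter windows (mouse build GRCm38.p6, from 250 bases before to 50 after an annotated start) were matched by symbol for 60 of the 77 members. The 17 without a window include Cryab, Hspb2, Hsp90aa1, Hsp90ab1, Hspa8 and Hsf1. The element was searched as 3 GAA units in alternating orientation, GAANNTTC followed by 2 further bases and GAA, on both strands, where overlapping matches can share units. It occurred without a mismatch in 5 of the 60 members (8.33%) and in 0.662% of the 27025 genes with a window. The 5 include Hspd1 and Hspe1, whose matches are the same bases read from either gene. With at most 1 mismatch it occurred in 18 members (30.0%) and in 8.15% of all genes, and GAANNTTC or TTCNNGAA alone in 18 members (30.0%) and in 17.0% of all genes. The stretches below are shown because they carry the matches of the inducible genes that moved most and, for contrast, of genes that moved little or the other way; each is written 5′ to 3′ on the gene's strand, and capitals mark letters covered by matches with at most 1 mismatch.
Hspa1b: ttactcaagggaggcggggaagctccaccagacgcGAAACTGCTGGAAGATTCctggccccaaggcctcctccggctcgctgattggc
Hsph1: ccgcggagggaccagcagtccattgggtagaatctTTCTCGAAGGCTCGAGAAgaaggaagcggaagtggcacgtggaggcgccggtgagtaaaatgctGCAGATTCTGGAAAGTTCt
Dnajb6: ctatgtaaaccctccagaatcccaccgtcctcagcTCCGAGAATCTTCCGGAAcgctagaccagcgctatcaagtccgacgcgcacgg
Chordc1: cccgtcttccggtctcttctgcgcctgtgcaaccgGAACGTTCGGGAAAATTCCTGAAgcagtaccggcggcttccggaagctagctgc
Hspe1: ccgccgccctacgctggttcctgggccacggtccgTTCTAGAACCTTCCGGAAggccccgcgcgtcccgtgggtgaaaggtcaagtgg

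The Hspa1b stretch lies at chr17:34959300-34959387 on the minus strand, and its matches, each with 1 mismatch, run from base -114 to -97 of the start. The same 88 bases stand before Hspa1a at chr17:34972218-34972305 on the minus strand, and the windows of the pair differ at 4 of 300 bases. The Hsph1 stretch (chr5:149636287-149636404, minus strand) holds matches on both sides of the start, the one without a mismatch at bases 37 to 49. The Dnajb6 stretch (chr5:29735812-29735899, plus strand) has its exact match at bases -46 to -34, and that of Chordc1 (chr9:18292228-18292316, plus strand) spans the start. The Hspe1 stretch (chr1:55088024-55088111, plus strand) lies between Hspe1 and Hspd1, which stand head to head, and their windows share 285 bases. Exact matches therefore stood at genes that rose with TEV, such as Hsph1 and Dnajb6, and at Hspd1, which fell, while Hspa1b and Hspa1a held matches with 1 mismatch alone. A match of letters describes the sequence and does not show binding.

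**Figure D4:**
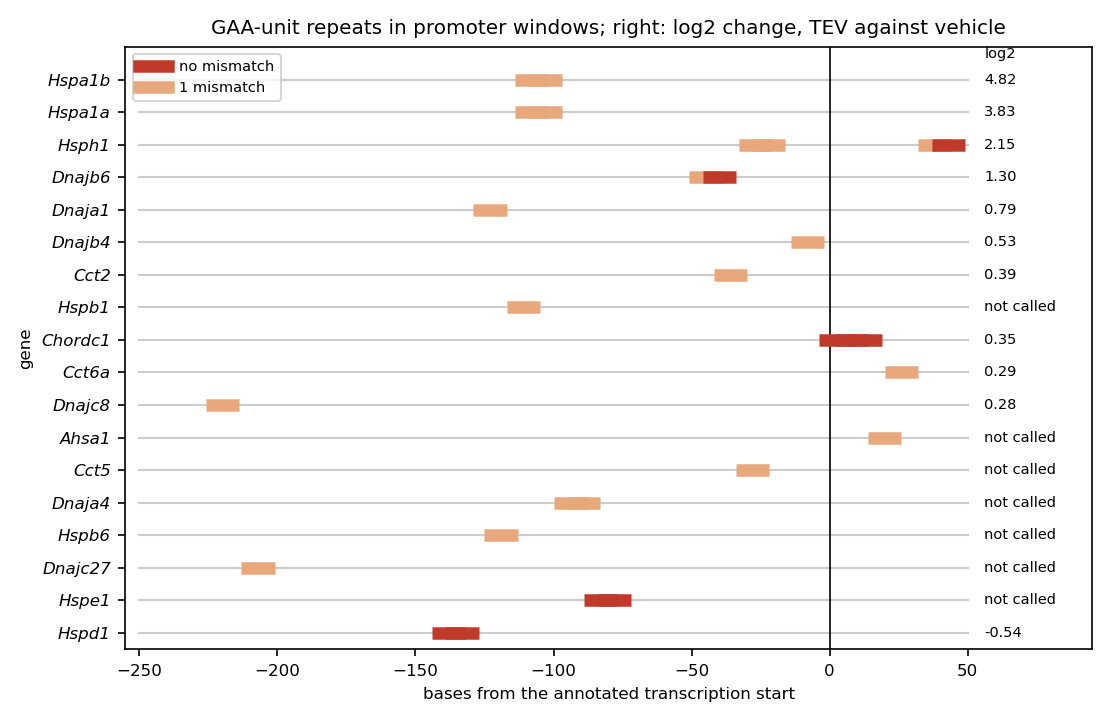
Bars mark matches to 3 GAA units in alternating orientation along the promoter windows of the 18 members that hold one, in bases from the annotated start (1 window a gene), dark for no mismatch and light for 1 mismatch; the numbers at the right are log2 changes in TEV against vehicle where called. Genes run from the highest change (Hspa1b, 4.82) at the top to Hspd1 (-0.54) at the bottom, and exact matches stand in 5 of them.

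Hsp90 genes changed by less. Hsp90aa1, the stress-inducible form, had 1066 and 1169 CPM with TEV plus reserpine, 1473 and 1299 CPM with TEV, and 1017 and 1032 CPM with vehicle. The TEV libraries were the highest, with a log2 change of 0.44 against vehicle (SE 0.0871, edgeR adjusted p = 0.00614). TEV plus reserpine was called lower than TEV (-0.31, edgeR adjusted p = 0.0358), a call that ended without vehicle replicate 1 or 2, TEV replicate 1, or TEV plus reserpine replicate 1 or 2 (edgeR adjusted p between 0.0573 and 0.152). Hsp90ab1, the constitutive form, had 3057 and 3059 CPM with TEV plus reserpine, 2960.1 and 2943 CPM with TEV, and 2226 and 2276 CPM with vehicle. Both vesicle groups lay above vehicle, at log2 changes of 0.39 for TEV (SE 0.058, edgeR adjusted p = 0.00178) and 0.44 for TEV plus reserpine (SE 0.058, edgeR adjusted p = 0.00161). TEV plus reserpine against TEV did not pass the test (0.05, SE 0.0579, edgeR adjusted p = 0.531). Of the read-length windows of Hsp90aa1, 50.9% occur in other transcripts.

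Of the 7 small heat shock protein genes, 2 (28.6%) were called higher with TEV, near the 25.1% of all genes, and 3 (42.9%) lower, against 24.6%. Hspb2 is among the higher and Hspb7 among the lower, each a member only through the group where it is high. Cryab, the alpha-B crystallin gene, had 32.7 and 27.7 CPM with TEV plus reserpine, 262 and 206 CPM with TEV, and 19.9 and 19.8 CPM with vehicle. The TEV libraries were about an order of magnitude above vehicle, and no groups overlapped. The log2 change was 3.56 (SE 0.15, edgeR adjusted p = 1.27e-05) in TEV against vehicle and -2.96 (SE 0.146, edgeR adjusted p = 0.000223) in TEV plus reserpine against TEV. The remaining excess over vehicle with both agents was called (0.60, SE 0.143, edgeR adjusted p = 0.0165), but not without vehicle replicate 1 or 2 or TEV plus reserpine replicate 1 (edgeR adjusted p between 0.0671 and 0.0724). Hspb2, which lies beside Cryab in the genome, was low in every library. It had 1.21 and 0.66 CPM with TEV plus reserpine, 3.17 and 2.60 CPM with TEV, and 0.65 and 0.487 CPM with vehicle. The authors' filter kept genes over 1 CPM in 2 libraries, and outside the TEV group only TEV plus reserpine replicate 1 exceeded 1 CPM. Hspb2 thus passed through the TEV libraries, and its higher level with TEV is given as values with no test.

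Other small heat shock proteins were lower in the vesicle groups. Hspb8, a partner of Bag3 in the selective autophagy of damaged proteins, had 28.3 and 26.9 CPM with TEV plus reserpine, 24.9 and 25.8 CPM with TEV, and 66.2 and 72.6 CPM with vehicle. It fell in TEV against vehicle (log2 change -1.45, SE 0.0944, edgeR adjusted p = 5.91e-05) and in TEV plus reserpine against vehicle (-1.33, SE 0.0951, edgeR adjusted p = 0.000143). Hspb7, known from heart and muscle, was listed at 0 and had 0.0574 CPM with TEV plus reserpine, 0.0833 and 0.153 CPM with TEV, and 4.20 and 3.48 CPM with vehicle. It passed the authors' filter through the vehicle libraries alone. Its lower level in the vesicle groups is therefore given as values with no test. Markers of fibroblasts and of pericytes and smooth muscle were lower in the same vesicle libraries.

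Hspb1, a small heat shock protein that also guards actin filaments, had 37.7 and 29.6 CPM with TEV plus reserpine, 67.5 and 56.7 CPM with TEV, and 47.0 and 48.6 CPM with vehicle. Of the read-length windows of Hspb1, 46.4% also occur in the pseudogene Hsp25-ps1. TEV plus reserpine lay below both other groups (log2 change -0.89, SE 0.143, edgeR adjusted p = 0.00625 against TEV, and -0.51, SE 0.144, edgeR adjusted p = 0.0306 against vehicle), though the second call ended without vehicle replicate 1 or 2 or TEV plus reserpine replicate 2 (edgeR adjusted p between 0.0945 and 0.135). Hspb6 had 9.87 and 8.38 CPM with TEV plus reserpine, 12.5 and 13.2 CPM with TEV, and 13.9 and 11.9 CPM with vehicle. Its calls at a log2 change of -0.50 against TEV (edgeR adjusted p = 0.0485) and -0.50 against vehicle (edgeR adjusted p = 0.0408) ended without any 1 of the 6 libraries (edgeR adjusted p between 0.0647 and 0.203 in the first and between 0.057 and 0.211 in the second). Hspb11, whose protein works in transport along cilia, had 11.4 and 11.0 CPM with TEV plus reserpine, 3.00 and 3.83 CPM with TEV, and 8.85 and 8.64 CPM with vehicle. It was the reverse of Cryab, lowest in both TEV libraries (log2 change -1.35, SE 0.177, edgeR adjusted p = 0.00105 against vehicle) and higher with both agents than with TEV (1.70, SE 0.178, edgeR adjusted p = 0.00147).

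The cytosolic chaperonin, CCT, folds actin and tubulin in a ring of different subunits, 7 of whose genes are members. With TEV, 5 of the 7 (71.4%, against 25.1% of all genes) were called higher (Cct2, Cct3, Cct6a, Cct7 and Cct8) and none lower, with log2 changes of all 7 between -0.18 and 0.50. Levels of all 7 lay between 139 and 563 CPM in every library. Cct3 had 409 and 391 CPM with TEV plus reserpine, 474 and 451 CPM with TEV, and 321 and 334 CPM with vehicle, and its increase with TEV (log2 change 0.50, SE 0.0725, edgeR adjusted p = 0.00163) was the largest of the 7. Cct8 had 407 and 434 CPM with TEV plus reserpine, 411 and 395 CPM with TEV, and 315 and 314 CPM with vehicle (0.36 in TEV against vehicle, SE 0.0725, edgeR adjusted p = 0.00645). The call of Cct6a (0.29, edgeR adjusted p = 0.0205) ended without vehicle replicate 1 or 2 or TEV replicate 1 (edgeR adjusted p between 0.0573 and 0.109). Cct4 was the 1 subunit whose TEV libraries, at 263 and 261 CPM, lay below both others, at 332 and 346 CPM with TEV plus reserpine and 287 and 307 CPM with vehicle. Its difference between TEV plus reserpine and TEV was called (0.37, SE 0.0735, edgeR adjusted p = 0.0119), but not without TEV replicate 1 or TEV plus reserpine replicate 2 (edgeR adjusted p between 0.0519 and 0.0557), and TEV against vehicle did not pass (-0.18, edgeR adjusted p = 0.0791).

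With TEV plus reserpine, 6 of the 7 CCT genes (85.7%, against 19.1% of all genes) were called higher than with vehicle, at log2 changes between 0.19 and 0.42 over all 7. Cct8 had the highest (0.42, SE 0.0726, edgeR adjusted p = 0.00482), and its call held when any library was left out. The calls of Cct2, Cct3, Cct5, Cct6a and Cct7 each ended without 2 or more of the vehicle and TEV plus reserpine libraries. Those of Cct2 ended without vehicle replicate 1 or TEV plus reserpine replicate 1 (edgeR adjusted p between 0.0532 and 0.105) and those of Cct6a without vehicle replicate 1 or 2 (between 0.0526 and 0.0615). Cct3 and Cct7 lost theirs without vehicle replicate 1 or 2 or TEV plus reserpine replicate 1 (edgeR adjusted p between 0.0728 and 0.124 for Cct3 and between 0.0745 and 0.101 for Cct7), and Cct5 without any 1 of the 4 libraries compared (between 0.0768 and 0.186). The summed level of the 7 genes was 2575 and 2569 CPM with TEV plus reserpine, 2563 and 2500.1 CPM with TEV, and 2044 and 2126 CPM with vehicle. Tcp1, the subunit that the symbol rule misses, had 542 and 529 CPM with TEV plus reserpine, 463 and 476 CPM with TEV, and 418 and 407 CPM with vehicle, and was called in TEV plus reserpine against vehicle (0.38, SE 0.0675, edgeR adjusted p = 0.0056).

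**Figure D5:**
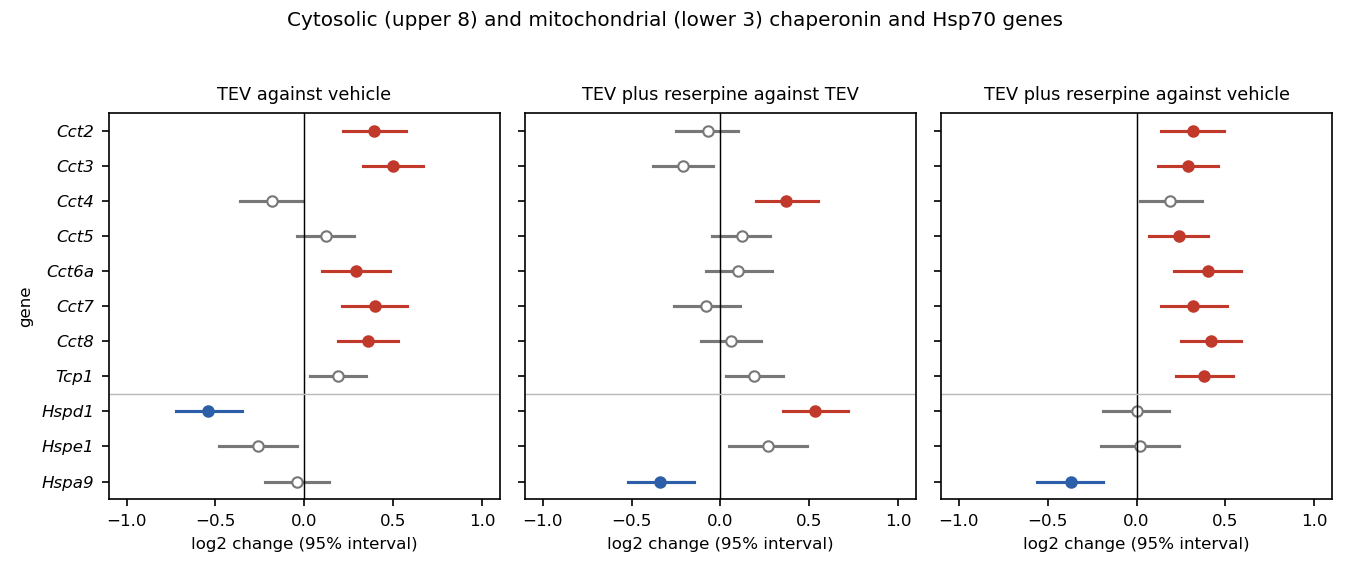
Points are log2 changes in edgeR with 95% intervals for the CCT subunit genes with Tcp1 (above the line) and for the mitochondrial Hspd1, Hspe1 and Hspa9 (below it), with the 3 comparisons in panels; filled points were called. Hspd1 stands at -0.54 in TEV against vehicle and at 0.53 in TEV plus reserpine against TEV, whereas Cct3 stands at 0.50 in the first panel.

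The mitochondrial chaperonin went the other way from most CCT genes with TEV. Hspd1, which encodes Hsp60, had 496 and 541 CPM with TEV plus reserpine, 350.1 and 367 CPM with TEV, and 509 and 531 CPM with vehicle. The TEV libraries were the lowest and the other groups overlapped. The log2 change was -0.54 in TEV against vehicle (SE 0.0777, edgeR adjusted p = 0.0016) and 0.53 in TEV plus reserpine against TEV (SE 0.0778, edgeR adjusted p = 0.0043). Hspe1, the gene of its lid Hsp10, had 109 and 108 CPM with TEV plus reserpine, 86.8 and 92.3 CPM with TEV, and 99.7 and 114 CPM with vehicle. Its TEV libraries were also the lowest, but neither TEV against vehicle (-0.26, edgeR adjusted p = 0.0566) nor TEV plus reserpine against TEV (0.27, edgeR adjusted p = 0.0646) passed the test. Of the read-length windows, 33.7% of Hspd1 and 23.7% of Hspe1 occur in other transcripts, chiefly of pseudogenes for Hspd1.

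J-domain proteins bring clients to Hsp70 and start its ATP use. Of 34 such genes, 14 (41.2%) were called higher and 3 (8.82%) lower in TEV against vehicle, against 25.1% and 24.6% of all genes. In TEV plus reserpine against TEV, 2 (5.88%) were higher and 9 (26.5%) lower, against 15.7% and 16.0%. In TEV plus reserpine against vehicle, 9 (26.5%) were higher and 5 (14.7%) lower, which is near the 19.1% and 19.9% of all genes. Dnajb6, which keeps polyglutamine proteins from aggregating, had 150.4 and 151 CPM with TEV plus reserpine, 401 and 288 CPM with TEV, and 141 and 140 CPM with vehicle. Both TEV libraries stood about 2-fold or more above the rest (log2 change 1.30, SE 0.15, edgeR adjusted p = 0.00062 against vehicle; TEV plus reserpine against TEV -1.19, SE 0.15, edgeR adjusted p = 0.00259). Dnaja1, a main cytosolic partner of Hsp70, had 247 and 284 CPM with TEV plus reserpine, 403 and 340.2 CPM with TEV, and 211 and 218 CPM with vehicle. It rose in TEV against vehicle (0.79, SE 0.11, edgeR adjusted p = 0.00135), and its lower level in TEV plus reserpine than in TEV (-0.48, edgeR adjusted p = 0.0182) lost the call without TEV replicate 1 or TEV plus reserpine replicate 1 (edgeR adjusted p between 0.0803 and 0.0856). Of the read-length windows, 22.5% of Dnajb6 and 16.1% of Dnaja1 occur in other transcripts. Dnajb4, a cytosolic J protein, had 54.6 and 55.5 CPM with TEV plus reserpine, 78.8 and 70.0 CPM with TEV, and 51.7 and 51.6 CPM with vehicle. It rose with TEV (0.53, edgeR adjusted p = 0.00328), while the call of TEV plus reserpine against TEV (-0.43, edgeR adjusted p = 0.0138) ended without TEV replicate 1 or TEV plus reserpine replicate 1 or 2 (edgeR adjusted p between 0.0572 and 0.0638).

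Dnajb1, the classic stress-inducible J protein, is added here because of that role, with its values known. It had 73.5 and 69.6 CPM with TEV plus reserpine, 72.3 and 68.0 CPM with TEV, and 57.3 and 59.8 CPM with vehicle. Its TEV libraries thus stood far nearer to vehicle than those of Hspa1b or Dnajb6, and its calls against vehicle, at 0.26 for TEV (edgeR adjusted p = 0.0378) and 0.29 for TEV plus reserpine (edgeR adjusted p = 0.0338), each ended without any 1 of the 4 libraries compared (edgeR adjusted p between 0.0537 and 0.19 for TEV and between 0.0662 and 0.18 for TEV plus reserpine). Dnajc9, a chaperone of histones, had 58.3 and 54.1 CPM with TEV plus reserpine, 45.8 and 54.3 CPM with TEV, and 22.8 and 19.9 CPM with vehicle. It was high in both vesicle groups (1.23, SE 0.124, edgeR adjusted p = 0.00035 for TEV and 1.39, SE 0.125, edgeR adjusted p = 0.000317 for TEV plus reserpine, each against vehicle). Dnajb5, a further cytosolic J protein, had 73.2 and 65.1 CPM with TEV plus reserpine, 43.2 and 45.6 CPM with TEV, and 38.0 and 38.9 CPM with vehicle. It was highest with both agents (0.64, SE 0.0941, edgeR adjusted p = 0.0045 against TEV and 0.85, SE 0.095, edgeR adjusted p = 0.000828 against vehicle). Dnajc5, the cysteine string protein of secretory vesicles, had 201 and 201 CPM with TEV plus reserpine, 257 and 249 CPM with TEV, and 175 and 169 CPM with vehicle, and rose with TEV (0.55, SE 0.0701, edgeR adjusted p = 0.000893). With both agents it was called lower than with TEV (-0.33, edgeR adjusted p = 0.0147) and higher than with vehicle (0.22, edgeR adjusted p = 0.0425). Both of these calls ended without some single libraries.

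Other J genes fell or moved by less. Dnajc19, of the mitochondrial import motor, had 8.22 and 8.44 CPM with TEV plus reserpine, 3.41 and 4.81 CPM with TEV, and 7.73 and 6.89 CPM with vehicle. The TEV libraries were the lowest, and both calls, at -0.82 in TEV against vehicle (edgeR adjusted p = 0.0164) and 1.01 in TEV plus reserpine against TEV (edgeR adjusted p = 0.0139), depended on single libraries. The first ended without TEV replicate 1 or vehicle replicate 1 (edgeR adjusted p between 0.0637 and 0.0804) and the second without TEV replicate 1 or TEV plus reserpine replicate 1 or 2 (between 0.0548 and 0.0613). Dnaja4 had 23.1 and 26.2 CPM with TEV plus reserpine, 40.3 and 36.0 CPM with TEV, and 35.6 and 39.7 CPM with vehicle. TEV plus reserpine was the lowest group (-0.61 against vehicle, edgeR adjusted p = 0.00761; -0.63 against TEV, edgeR adjusted p = 0.00988, a call lost without TEV replicate 1 or TEV plus reserpine replicate 1, at edgeR adjusted p between 0.0514 and 0.0537). Dnajb14, anchored in the endoplasmic reticulum, had 59.2 and 58.2 CPM with TEV plus reserpine, 49.3 and 55.3 CPM with TEV, and 79.1 and 72.0 CPM with vehicle, and fell in TEV against vehicle (-0.53, SE 0.0962, edgeR adjusted p = 0.00415). Its call in TEV plus reserpine against vehicle (-0.36, edgeR adjusted p = 0.0246) ended without some single libraries.

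A further set of J genes was called at low or modest change. Dnajc16 had 50.2 and 48.9 CPM with TEV plus reserpine, 68.4 and 59.6 CPM with TEV, and 45.5 and 45.4 CPM with vehicle. The TEV libraries were the highest (log2 change 0.49, SE 0.0961, edgeR adjusted p = 0.00563 against vehicle), while the call of TEV plus reserpine against TEV (-0.37, edgeR adjusted p = 0.0288) ended without vehicle replicate 1 or 2, TEV replicate 1, or TEV plus reserpine replicate 1 or 2 (edgeR adjusted p between 0.0576 and 0.126). Dnajc8, of the splicing machinery, had 126 and 124 CPM with TEV plus reserpine, 106 and 115 CPM with TEV, and 90.3 and 92.2 CPM with vehicle, and rose in TEV plus reserpine against vehicle (0.45, SE 0.0785, edgeR adjusted p = 0.00485). Its call in TEV against vehicle (0.28, edgeR adjusted p = 0.0227) ended without some single libraries. Dnajc17, also tied to splicing, had 6.48 and 5.94 CPM with TEV plus reserpine, 6.69 and 6.15 CPM with TEV, and 3.81 and 3.93 CPM with vehicle. Both vesicle groups lay above vehicle, but the call for TEV (0.73, edgeR adjusted p = 0.0126) ended without vehicle replicate 1 or 2 (edgeR adjusted p between 0.0501 and 0.0651) and that for TEV plus reserpine (0.68, edgeR adjusted p = 0.0226) without any 1 of the 4 libraries compared (between 0.0547 and 0.103).

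Dnajc11, a mitochondrial J protein, was called higher in TEV against vehicle (0.37, edgeR adjusted p = 0.0104), a call that ended without either vehicle library. It had 97.6 and 91.3 CPM with TEV plus reserpine, 90.2 and 98.1 CPM with TEV, and 73.0 and 72.8 CPM with vehicle. Dnaja3, of the matrix, had 49.1 and 53.2 CPM with TEV plus reserpine, 57.7 and 55.2 CPM with TEV, and 66.5 and 65.3 CPM with vehicle. Their opposite calls in TEV plus reserpine against vehicle (0.37, edgeR adjusted p = 0.0138 for Dnajc11, and -0.36, edgeR adjusted p = 0.0161 for Dnaja3) both ended without vehicle replicate 1 or 2 or TEV plus reserpine replicate 1 (edgeR adjusted p between 0.068 and 0.0797 for Dnajc11 and between 0.0714 and 0.0965 for Dnaja3). Dnajc15, a mitochondrial relative of Dnajc19, had 8.17 and 8.81 CPM with TEV plus reserpine, 8.02 and 7.80 CPM with TEV, and 5.50 and 6.48 CPM with vehicle, and its call in TEV plus reserpine against vehicle (0.51, edgeR adjusted p = 0.0479) ended without any 1 of the 6 libraries (edgeR adjusted p between 0.0565 and 0.226). Dnajc18 had 36.8 and 39.9 CPM with TEV plus reserpine, 57.1 and 48.7 CPM with TEV, and 46.2 and 45.0 CPM with vehicle, and its call in TEV plus reserpine against TEV (-0.46, edgeR adjusted p = 0.0198) ended without TEV replicate 1 or TEV plus reserpine replicate 1 or 2 (edgeR adjusted p between 0.0554 and 0.0934). Apart from Dnajc14, 16 J genes remain. Their log2 changes ran from -0.42 to 0.73 in TEV against vehicle. Of the 16, 4 were called higher and 1 lower there, against 25.1% and 24.6% of all genes. In TEV plus reserpine against TEV the range was -1.19 to 0.36, with 0 higher and 2 lower, against 15.7% and 16.0%. In TEV plus reserpine against vehicle it was -0.47 to 0.33, with 1 higher and 2 lower, against 19.1% and 19.9%.

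Most BAG proteins bind Hsp70 and release its nucleotide. All 6 measured genes were called in TEV against vehicle, 4 higher (Bag1, Bag3, Bag4 and Bag6; 66.7%, against 25.1% of all genes) and 2 lower (Bag2 and Bag5; 33.3%, against 24.6%). Bag3, known to be induced by stress and to steer clients to autophagy, had 133 and 125 CPM with TEV plus reserpine, 269 and 207 CPM with TEV, and 117 and 112 CPM with vehicle. The TEV libraries stood apart (log2 change 1.06, SE 0.129, edgeR adjusted p = 0.000774 against vehicle), and TEV plus reserpine was lower than TEV (-0.88, SE 0.129, edgeR adjusted p = 0.00429). Bag6, which guards tail-anchored membrane proteins, had 247 and 243 CPM with TEV plus reserpine, 363 and 351 CPM with TEV, and 217 and 211 CPM with vehicle (0.74, SE 0.0696, edgeR adjusted p = 0.000263 in TEV against vehicle; -0.54, SE 0.0694, edgeR adjusted p = 0.0028 in TEV plus reserpine against TEV). Bag1 had 154 and 152 CPM with TEV plus reserpine, 193 and 169.6 CPM with TEV, and 108 and 106 CPM with vehicle. Both vesicle groups lay above vehicle (0.75, SE 0.086, edgeR adjusted p = 0.000582 for TEV and 0.52, SE 0.0861, edgeR adjusted p = 0.00418 for TEV plus reserpine).

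Bag2, an inhibitor of the ubiquitin ligase CHIP, had 14.7 and 17.5 CPM with TEV plus reserpine, 12.5 and 15.5 CPM with TEV, and 46.1 and 49.5 CPM with vehicle. Every vesicle library lay far below either vehicle library (log2 change -1.77, SE 0.147, edgeR adjusted p = 0.000161 for TEV and -1.57, SE 0.148, edgeR adjusted p = 0.0004 for TEV plus reserpine). Bag5 had 22.5 and 22.9 CPM with TEV plus reserpine, 19.1 and 21.4 CPM with TEV, and 28.5 and 31.1 CPM with vehicle, and fell in TEV against vehicle (-0.55, SE 0.11, edgeR adjusted p = 0.00614). Its call in TEV plus reserpine against vehicle (-0.39, edgeR adjusted p = 0.0307) ended without any 1 of the 4 libraries compared (edgeR adjusted p between 0.0782 and 0.162). Bag4 had 18.6 and 20.9 CPM with TEV plus reserpine, 26.7 and 24.5 CPM with TEV, and 18.9 and 17.5 CPM with vehicle; its call with TEV (0.49, edgeR adjusted p = 0.0127) ended without TEV replicate 1 or vehicle replicate 2 (edgeR adjusted p between 0.0544 and 0.083).

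Other cochaperones were measured with the cytosolic chaperones they serve. Stip1, which hands clients from Hsp70 to Hsp90, had 247 and 245 CPM with TEV plus reserpine, 361 and 333 CPM with TEV, and 194 and 229 CPM with vehicle. It rose in TEV against vehicle (log2 change 0.72, SE 0.0993, edgeR adjusted p = 0.00133), and its lower level in TEV plus reserpine than in TEV (-0.50, edgeR adjusted p = 0.0121) lost the call without TEV replicate 1 or TEV plus reserpine replicate 1 or 2 (edgeR adjusted p between 0.0559 and 0.0595). Chordc1, a cochaperone of Hsp90, had 52.7 and 57.5 CPM with TEV plus reserpine, 87.1 and 79.1 CPM with TEV, and 66.1 and 64.3 CPM with vehicle. It was lower in TEV plus reserpine than in TEV (-0.59, SE 0.092, edgeR adjusted p = 0.00541), and its call in TEV against vehicle (0.35, edgeR adjusted p = 0.0178) ended without vehicle replicate 1 or 2 or TEV replicate 1 (edgeR adjusted p between 0.0691 and 0.0998). St13, which steadies the client-bound form of Hsp70, had 236 and 240.3 CPM with TEV plus reserpine, 298 and 256 CPM with TEV, and 185 and 188 CPM with vehicle (0.57, SE 0.0913, edgeR adjusted p = 0.00244 in TEV against vehicle). Its call in TEV plus reserpine against vehicle (0.35, edgeR adjusted p = 0.0223) ended without some single libraries. Ahsa1, the activator of the Hsp90 ATPase, had 108 and 100.2 CPM with TEV plus reserpine, 111 and 116 CPM with TEV, and 96.2 and 106 CPM with vehicle, and neither it nor Hspbp1, between 20.9 and 27.3 CPM in every library, passed a test in any comparison.

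Hsf2, the heat shock factor best known from development, had 10.7 and 9.44 CPM with TEV plus reserpine, 86.3 and 35.6 CPM with TEV, and 12.8 and 13.8 CPM with vehicle. The TEV libraries were the highest by far and differed from each other, replicate 1 being higher as for Hspa1b. The log2 change was 2.19 (SE 0.383, edgeR adjusted p = 0.00352) in TEV against vehicle and -2.60 (SE 0.394, edgeR adjusted p = 0.00497) in TEV plus reserpine against TEV. Hsf1, the main factor of the heat shock response, was listed at 0 in 1 library of each group. Its other libraries held 4.38 CPM with TEV plus reserpine (replicate 1), 2.67 CPM with TEV (replicate 2) and 0.139 CPM with vehicle (replicate 2). Cells use Hsf1 in general, so these values are given by library and with no change. Dnajc14 was likewise listed at 0 in replicate 1 of both vesicle groups.

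Levels of different members can be compared only per length of transcript, on the scale of CPM per kb of mean GENCODE transcript length. Hspa8 ranked first in every group, at 1950 CPM per kb with TEV plus reserpine, 2240 with TEV and 1280 with vehicle, and Hsp90ab1 ranked second in every group. Hspa1b ranked 51 with TEV plus reserpine, 5 with TEV and 49 with vehicle of 76 genes with a length, at 10.1, 369 and 13.0 CPM per kb in that order. Cryab ranked 31 with TEV plus reserpine, 6 with TEV and 38 with vehicle. Together the 77 members held 1.66% and 1.70% of counts with TEV plus reserpine, 1.98% and 1.89% with TEV, and 1.40% and 1.43% with vehicle.

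Other genes of protein folding outside the rule were taken from a list of 45, of which 43 were tested. In TEV against vehicle 15 (34.9%) were called higher and 5 (11.6%) lower, against 25.1% and 24.6% of all genes. In TEV plus reserpine against TEV 6 (14.0%) were higher, near the 15.7% of all genes, and 11 (25.6%) lower, against 16.0%. In TEV plus reserpine against vehicle 10 (23.3%) were higher, near the 19.1% of all genes, and 3 (6.98%) lower, against 19.9%. Grpel1, the nucleotide exchange factor of the mitochondrial Hsp70, had 119 and 107 CPM with TEV plus reserpine, 212 and 181 CPM with TEV, and 83.5 and 91.6 CPM with vehicle (log2 change 1.17, SE 0.109, edgeR adjusted p = 0.000255 in TEV against vehicle; -0.80, SE 0.108, edgeR adjusted p = 0.00324 in TEV plus reserpine against TEV). Fkbp4, an immunophilin that joins Hsp90 to steroid receptors, had 69.6 and 68.8 CPM with TEV plus reserpine, 49.1 and 55.7 CPM with TEV, and 99.7 and 96.6 CPM with vehicle, and fell in TEV against vehicle (-0.90, SE 0.0907, edgeR adjusted p = 0.000342). Of the 6 chaperones of the endoplasmic reticulum left out by the rule, 1 (16.7%) was called higher and 2 (33.3%) lower in TEV against vehicle. The shares of all genes were 25.1% and 24.6%. Hsp90b1, the Hsp90 of that compartment, had 1067 and 1108 CPM with TEV plus reserpine, 857 and 830.1 CPM with TEV, and 1346 and 1424 CPM with vehicle, and was thus lowest where Hsp90aa1 was highest (-0.72, SE 0.0688, edgeR adjusted p = 0.000288 in TEV against vehicle).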

How the data were processed

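TruSeq mRNA libraries of Trizol-extracted RNA were read as single-end 75 bp reads, per the labels' protocols. Per the submitters' processing notes, kallisto 0.45.0 and R 4.0.0 with edgeR and limma were used; these notes name the human build GRCh38, although the symbols are those of mouse genes. Whether counting used strand is not stated. The authors deposited estimated counts per gene in a raw and a filtered table with identical values, 61.2% of them not whole. Estimated counts were rounded here, cut to 15035 genes by edgeR's filterByExpr, and given TMM factors of 0.941 to 1.04. Comparisons were contrasts in 1 quasi-likelihood model (edgeR 4.0.16) of the 6 libraries, leaving 3 residual degrees of freedom, with Benjamini-Hochberg adjustment over all genes tested; scripts were tested on simulated data. R 4.3.3, limma 3.58.1 and DESeq2 1.42.0 served for alternatives. Replicates differed beyond sampling noise: the mean chi-square per gene was 20.5 with TEV plus reserpine, 43.3 with TEV and 19.5 with vehicle. Members and lists were chosen with earlier results of these data known. All members outside the J family were named, as were, in each comparison, the 8 J genes with the largest change among called genes of at least 5 CPM; Dnajb1 was added.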

Additional observations from a re-analysis of the deposited data

How the results depend on the processing

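No called member changed sign under any of 16 alternatives in any comparison. Calls held under all 16 for 20 of 39 higher and 7 of 10 lower members in TEV against vehicle, 4 of 7 and 12 of 28 in TEV plus reserpine against TEV, and 5 of 22 and 5 of 14 in TEV plus reserpine against vehicle. Leaving out each library gave 4 to 7 higher and 13 to 26 lower members in TEV plus reserpine against TEV, and 9 to 22 higher and 6 to 16 lower in TEV plus reserpine against vehicle; medians ran from 0.29 to 0.33 in TEV against vehicle and from -0.20 to -0.15 in TEV plus reserpine against TEV.

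With library size alone the medians were 0.17, -0.12 and 0.06 in the 3 comparisons, and 39.8%, 59.4% and 43.9% of all calls were higher, against 50.5%, 49.5% and 49.0%. The fit of TEV and vehicle alone gave a median of 0.26. The 15 members assigned to organelles were also left out (chosen after seeing the data). Of the other 62, 5 were lower in TEV against vehicle, against 24.6% of all genes. In TEV plus reserpine against TEV, 4 of the 62 were higher, against 15.7% of all genes. Medians of the 62 were 0.35 in TEV against vehicle and 0.15 in TEV plus reserpine against vehicle. Heat shock elements stood in 30.0% of member promoters with 1 mismatch allowed and in 30.0% as 2 units.

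Libraries with the same title number did not deviate together (correlations of 0.00, -0.06 and -0.09), so the title numbers gave no sign of a pairing. This check could not cover a pairing of vehicle with the vesicle groups by description number, because those numbers only partly overlap. With the replicate block by the title number, 35 members (45.5%) were higher and 10 (13%) lower in TEV against vehicle. The shares of all genes in that fit were 22.9% and 22.8%. With the block by the description number, 20 (26%) were higher in TEV against vehicle, against 14.5% of all genes, at a median of 0.32. In TEV plus reserpine against vehicle that block gave 6 higher (7.79%) and 6 lower (7.79%) members, against 8.35% and 9.62% of all genes. The median there was 0.14, and the share of higher members was not above that of all genes. The cause of these differences was not tested. Groups of 2 libraries and 3 residual degrees of freedom limit what changes can be called.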
